A study of Mus musculus with 4 samples.

Results

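The laser lesion of the young mouse eye was compared with the unlesioned young eye in 2 droplet single-cell libraries, chosen by the barcode prefixes that the deposited count matrix gives to young mice. They hold 22294 of the 36701 cells of the series, 11427 from the control and 10867 from the lesioned eyes. Both groups were WT mice of 6 to 8 weeks. One was lesioned with a 532 nm laser at 200 mW for 0.15 s per burn with a 100 µm spot and sampled 3 days later, and the other carried no lesion. Such burns break Bruch's membrane and set off choroidal neovascularisation (CNV), the growth of choroidal vessels under the retina. Retina and choroid with sclera were digested apart with papain, rods were removed from the retinal cells with an antibody against CD73, and the suspensions were then mixed, so the libraries hold cells from both sides of the burn. The comparison asks which cell classes responded, by how many genes and by how much, and which changes were shared between classes or belonged to 1 class. There was 1 library per group, so no difference could be set against a spread between animals, and nothing in the labels gives the number of animals behind a library.

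In a burned eye the retinal glia (Müller cells) become reactive and raise intermediate filaments and acute phase proteins, macrophages enter from the blood and clear debris, and fibroblasts and pericytes lay down matrix around sprouting vessels. Type I interferons act through their receptor on nearly every nucleated cell and switch on a common set of antiviral genes by way of interferon regulatory factors. Immediate early genes such as Fos and Egr1 answer within minutes to growth factors, injury and handling of tissue.

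Each cell was classed from its own unique molecular identifiers (UMIs, counted transcripts) by its share of UMIs from fixed marker lists. This placed 10123 control cells (88.6%) and 9289 CNV cells (85.5%), and set aside as mixed or unclassed the rest, among them possible doublets, for which no caller was run. Total UMIs were 68966431 and 111908519, with medians of 2593 and 7223 per cell, and 29 cell barcodes occurred in both libraries. Rod-list genes, whose UMIs in other cells can come from free RNA, were lower there after laser (they took 0.129% of endothelial-like UMIs in the control and 0.0286% in CNV), and macrophage-list genes were higher (0.00765% and 0.0459%). The part of such RNA in the results was not tested, and a gene was read in a class only if its level, in the library where it was higher, reached 0.1 of the level of the class with most of it. The UMIs of all cells of a class in a library were added up and scaled to their total (CPM, the usual unit of scaled counts). Classes with at least 50 cells in both libraries were compared, which left 12. For counts of genes all sums were thinned to the same 377557 UMIs, a gene had to average at least 50 CPM, and "past 2-fold" means a CPM ratio of CNV to control of at least 2 or at most 0.5. Levels and log2 ratios of named genes come from all UMIs, need at least 20 UMIs over both libraries, and carry 95% intervals that cover counting error only. For the genes past 2-fold in the most classes, the number of classes also comes from all UMIs, without the floor of 50 CPM, unless equal totals are named. Where a pair of CPM values is given without more words, the control comes first. Counts over gene lists and their medians come from the equal totals.

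Most genes past 2-fold were counted in a small class named by the Schwann list, then in macrophages and Müller glia, and fewest in cones. These cells, called Schwann-list cells here because they turned out mixed, had 417 genes past 2-fold of 3894 read (10.7%), 245 higher and 172 lower. Macrophage/monocyte-like cells followed with 259 of 3178 (8.15%) and Müller glia-like cells with 242 of 3943 (6.14%). In the macrophage class 83 were higher and 176 lower, but with edgeR's TMM factors, which shift its log2 ratios by -0.12, the split was 126 higher and 112 lower, so its balance depends on the scaling. In the Müller class 147 were higher and 95 lower (169 higher and 67 lower with TMM factors). A middle group held endothelial-like cells with 162 genes (4.41%), rod-like cells with 164 (4.39%), melanocyte-like cells with 129 (3.85%), fibroblast-like cells with 125 (3.63%) and bipolar-like cells with 105 (2.91%). Mural-like cells, the pericytes and smooth muscle of vessels, had 81 (2.28%). With TMM factors the split went from 69 higher and 56 lower to 88 higher and 40 lower in fibroblast-like cells, from 76 and 86 to 89 higher and 72 lower in endothelial-like cells and from 18 and 25 to 23 higher and 16 lower in RPE-like cells. At the quiet end stood the retinal pigment epithelium (RPE-like, 43 genes, 1.8%), epithelial-like cells (43, 1.49%) and cone-like cells (37, 0.995%). Bipolar-like cells leaned most to one side among classes with more higher genes, with 78 of 105 higher. By direction, higher genes were 2.61% of those read in macrophage/monocyte-like, 3.73% in Müller glia-like, 2.63% in rod-like, 2.39% in melanocyte-like, 2.16% in bipolar-like, 2.07% in endothelial-like, 2.01% in fibroblast-like, 1.13% in mural-like, 0.764% in epithelial-like and 0.752% in RPE-like cells. Lower genes were 5.54%, 2.41%, 1.77%, 1.46%, 0.749%, 2.34%, 1.63%, 1.16%, 0.73% and 1.04% in the same order.

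The same 3 classes led by size of change. Past 4-fold were 63 genes higher and 9 lower in Schwann-list cells, 40 higher and 1 lower in Müller glia-like cells, 16 higher and 7 lower in macrophage/monocyte-like cells and 10 higher and 0 lower in bipolar-like cells. No other class exceeded 7 genes higher or 5 lower by that measure, and RPE-like, epithelial-like and cone-like cells together held 1. The median gene read moved by 0.38 on the log2 scale, in either direction, in macrophage/monocyte-like cells and by 0.35 and 0.34 in Schwann-list and Müller glia-like cells, against 0.22 in cone-like cells, a value that at this depth includes counting noise.

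These counts depend on how many UMIs and cells stand behind a class. With all UMIs instead of equal totals, counts were lower in every class, and the order at both ends was kept: Schwann-list cells had 364 genes (9.4% of those read), macrophage/monocyte-like cells 128 (4.09%), Müller glia-like cells 127 (3.25%), epithelial-like cells 8 (0.28%), RPE-like cells 7 (0.298%) and cone-like cells 5 (0.136%). When 61 cells were drawn from each class and library, a setting chosen after seeing the data and run without rods, macrophage/monocyte-like cells reached 513 genes (16.4% of those read) beside 514 (13.2%) in Schwann-list cells, 403 (10.2%) in Müller glia-like and 345 (10.1%) in fibroblast-like cells. So macrophages led by share of genes read once cell numbers were equal. Cone-like cells (109 genes) and RPE-like cells (91) stayed lowest. Leaving out genes with over 20% of their UMIs in a single cell left 346 of 417 genes in the Schwann-list class, 92 of 129 in melanocyte-like cells, and left 256 of 259 in macrophage/monocyte-like cells.

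**Figure D1:**
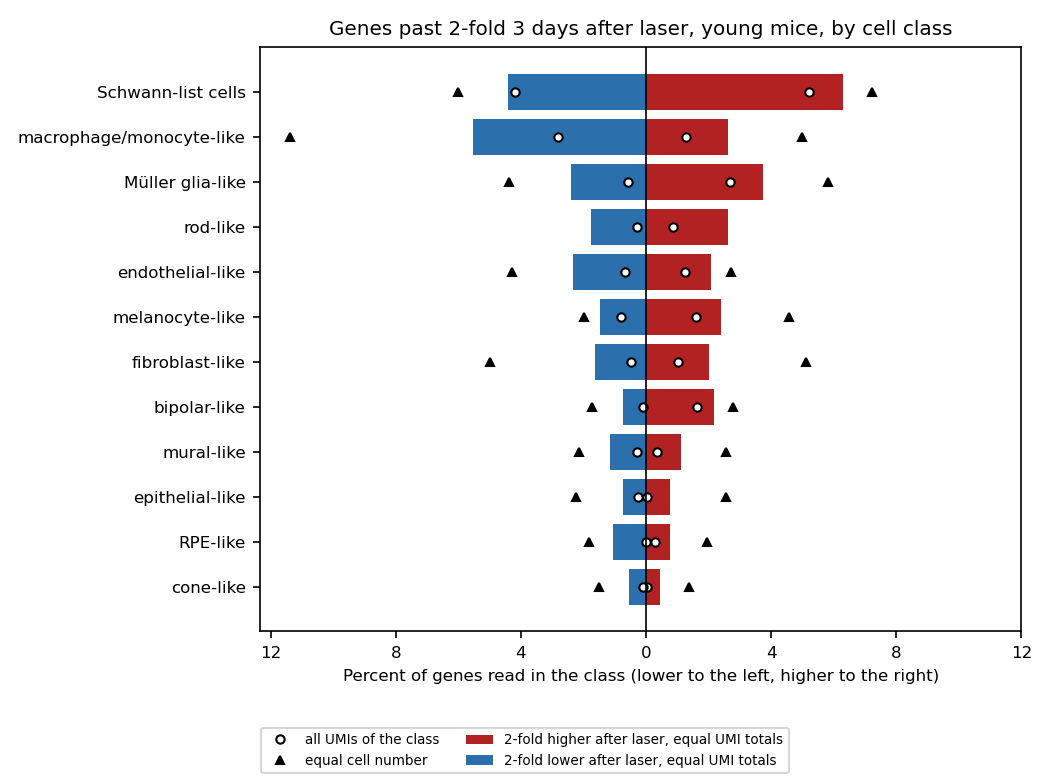
Genes past 2-fold 3 days after laser in each class, as a percent of the genes read there, higher to the right and lower to the left; bars are sums thinned to equal UMIs, circles all UMIs of the class, triangles 61 cells per class and library (rods not drawn). Schwann-list cells stand at the top with 6.29% higher and 4.42% lower, cone-like cells at the bottom with 0.457% and 0.538%.

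Cell numbers per class also differed between the libraries, by the highest ratio among the 12 classes for macrophages. Macrophage/monocyte-like cells were 175 and 1052 cells in control and CNV, 1.73% and 11.3% of classed cells, a ratio of 6.55 (5.58 to 7.73). Fibroblast-like cells (1410 and 2723) had a ratio of 2.10 (1.97 to 2.25), and rod-like cells (5870 and 2671) one of 0.496 (0.474 to 0.519). Since the protocol removes rods, shares were also taken without them: the macrophage ratio was then 3.86 (3.29 to 4.56) and the fibroblast ratio 1.24 (1.16 to 1.32), while endothelial-like cells went from a ratio of 1.53 to 0.902 and melanocyte-like cells from 1.37 to 0.808. Müller glia-like cells (397 and 205) had 0.563 with rods and 0.332 without. Microglia-like cells (38 and 132), T-like cells (24 and 49), natural killer-like cells (7 and 19) and neutrophil-like cells (4 and 14) were too few for gene counts.

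Few genes were past 2-fold in many classes, and 7 of the 10 widest were type I interferon genes. Of 4202 genes read in at least 4 classes, 958 were past 2-fold in any class, and 804 of these (83.9%) in exactly 1. Past 2-fold in the same direction in at least 0.5 of the classes that read them were 18 genes higher (0.428%) and 6 lower (0.143%). With all UMIs these counts were 18 and 3, of which 13 and 1 were genes counted at equal totals, and 381 of 452 genes called (84.3%) were called in 1 class. No gene passed 2-fold in all classes: the widest, Bst2, did so in 8 at equal UMI totals.

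Irf7, the regulatory factor that amplifies interferon production, was past 2-fold higher in 8 of the 10 classes that measured it, without the CPM floor. It had 7.46 and 41.4 CPM in Müller glia-like cells, a log2 ratio of 2.45 (1.78 to 3.22), and 25.8 and 111 CPM in endothelial-like cells, 2.10 (1.85 to 2.36). In epithelial-like cells it had 51.0 and 45.4 CPM, -0.17 (-0.35 to 0.02), an interval that spans 0. Isg15, a ubiquitin-like antiviral protein, passed in 6 of 8 classes. It had 12.2 CPM in the control and 126 CPM after laser in Müller glia-like cells, a log2 ratio of 3.35 (2.86 to 3.91), and 56.7 CPM in the control and 172 CPM after laser in macrophage/monocyte-like cells, 1.60 (1.30 to 1.92). Epithelial-like cells, the class with the highest control level of Isg15, had 279 CPM in the control and 256 CPM after laser. Bst2 (tetherin, which holds budding virus at the cell surface) passed in 6 of 9 classes. The widest change of Bst2 was in rod-like cells with 13.6 CPM in the control and 101 CPM after laser, 2.88 (2.62 to 3.16). This level lay close to the limit for reading a gene, 0.1 of the highest class level. The highest level after laser among the classes that measured Bst2 was 973 CPM. The part of free RNA in the rod value was not tested. In melanocyte-like cells, where the control level was highest, Bst2 had 811 CPM in the control and 959 CPM after laser, 0.24 (0.10 to 0.39).

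The Ifit genes, whose proteins bind foreign RNA, showed a similar spread over classes. Ifit3 passed in 6 of 9 classes, with 51.3 and 193 CPM in RPE-like cells, 31.6 and 142 CPM in endothelial-like cells and 37.7 and 195 CPM in Müller glia-like cells, and its interval lay above 0 in all 9. Ifit1 passed in 5 of 9, with 9.84 and 115 CPM in Müller glia-like cells and 82.2 and 85.4 CPM in epithelial-like cells. Ifit3b, a near-identical neighbour of Ifit3 whose reads cannot be told apart with certainty, passed in 5 of 9. Oasl2, a relative of the RNA-sensing oligoadenylate synthetases, passed in 6 of 9, with 50.2 and 191 CPM in Müller glia-like cells and 118 and 145 CPM in macrophage/monocyte-like cells, a log2 ratio of 0.30 (0.08 to 0.52). Outside the interferon set, Serpina3n, an acute phase protease inhibitor, passed in 5 of the 6 classes that measured it, with 4.41 and 152 CPM in Müller glia-like, 0.232 and 62.8 CPM in RPE-like, 6.90 and 58.0 CPM in melanocyte-like and 42.9 and 90.9 CPM in fibroblast-like cells, and 79.5 and 80.9 CPM in Schwann-list cells. Bipolar-like cells had 0 Serpina3n UMIs in the control and 89 after laser, at least 14.7-fold higher when 3 counts are taken for the control. The 10 widest were completed by Ncapg2, a condensin subunit, in 5 of 8 classes and the cyclin Ccnb2 in 4 of 6, both at under 40 CPM in every class. The intervals of Ncapg2 and of Ccnb2 lay above 0 in 4 classes each.

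**Figure D2:**
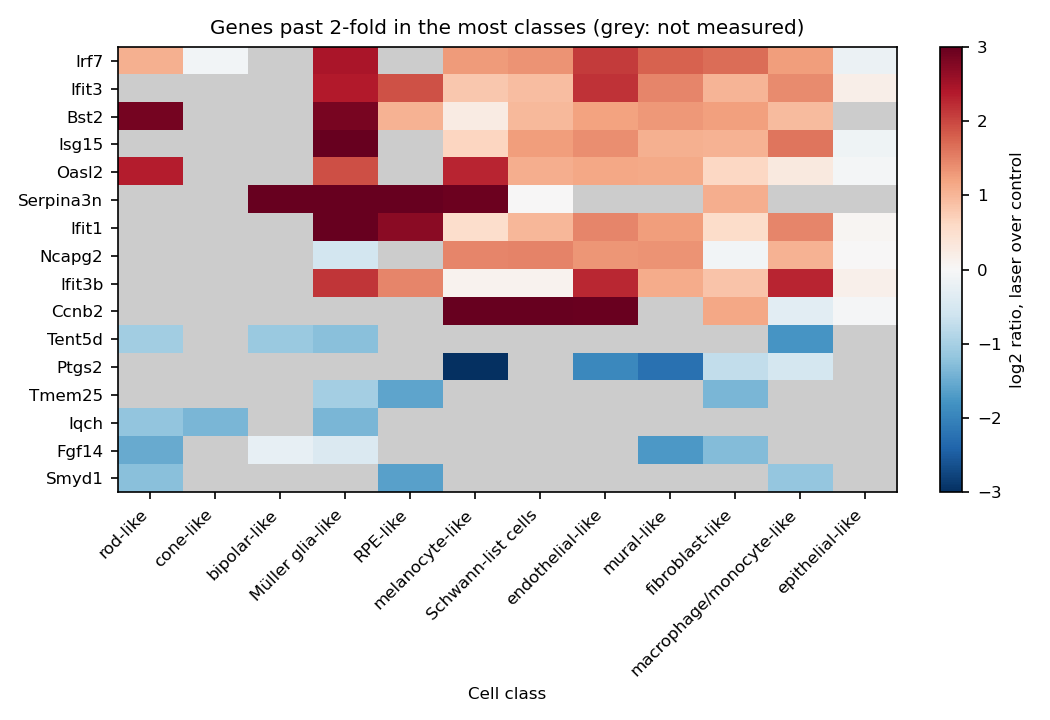
Log2 ratio of laser to control by cell class for the 10 genes past 2-fold higher in the most classes and the 6 lower in the most (colour scale from -3 to 3, larger values in the end colours, grey where under 20 UMIs or not read). The interferon genes Irf7 to Ifit3b are red across most columns and near white in the epithelial-like column at the right.

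Promoters of the widest genes were searched for the interferon motif, and the 250 bases before the start site are printed for 4 of them, from RefSeq on GRCm38.p6 and in the direction of the gene. Capitals mark every match to GAAA, 2 bases of any kind and GAAA again, or its reverse complement, the core that interferon-activated factors bind. Isg15 lies at chr4:156200819-156201068 (minus strand), Ifit1 at chr19:34640639-34640888 (plus strand), Ifit3 at chr19:34583279-34583528 (plus strand) and Bst2 at chr8:71537473-71537722 (minus strand).
Isg15: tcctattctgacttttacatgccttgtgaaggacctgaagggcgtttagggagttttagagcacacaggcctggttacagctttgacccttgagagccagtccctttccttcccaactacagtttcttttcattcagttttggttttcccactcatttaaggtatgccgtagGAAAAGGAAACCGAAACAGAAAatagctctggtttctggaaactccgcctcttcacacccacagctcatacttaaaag
Ifit1: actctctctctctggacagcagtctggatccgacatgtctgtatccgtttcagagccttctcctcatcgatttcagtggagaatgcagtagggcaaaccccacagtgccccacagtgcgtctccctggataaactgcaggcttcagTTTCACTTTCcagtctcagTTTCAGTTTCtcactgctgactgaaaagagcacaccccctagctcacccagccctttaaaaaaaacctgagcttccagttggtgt
Ifit3: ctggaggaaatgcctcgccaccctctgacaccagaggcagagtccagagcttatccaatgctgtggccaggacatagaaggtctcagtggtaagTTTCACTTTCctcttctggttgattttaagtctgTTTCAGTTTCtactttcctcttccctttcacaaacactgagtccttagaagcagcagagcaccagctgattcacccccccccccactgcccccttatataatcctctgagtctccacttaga
Bst2: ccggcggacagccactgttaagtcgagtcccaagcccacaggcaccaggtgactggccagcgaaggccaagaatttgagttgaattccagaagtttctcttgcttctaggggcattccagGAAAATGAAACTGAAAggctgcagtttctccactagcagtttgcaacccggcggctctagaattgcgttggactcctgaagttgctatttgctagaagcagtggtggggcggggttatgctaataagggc
Isg15 held 3 overlapping matches, which began 78, 72 and 66 bases before the start, Ifit1 held 2 (at 104 and 85), Ifit3 held 2 (at 156 and 122) and Bst2 held 2 that overlap (at 130 and 124). All 10 genes matched an entry, and with Ifit3b 5 of the 10 held the motif, beside 2.98% of all 32851 promoter windows of this length. Irf7, Oasl2, Serpina3n, Ncapg2 and Ccnb2 had no match to these letters in the window. TGANTCA, the AP-1 motif, was found in Ifit3, Ifit3b and Ncapg2 (6.75% of all windows), TTCNNNGAA, the STAT motif, in Bst2, where it overlaps the first capital run (7.02%), and an NF-kB motif (GGG, 2 bases of any kind, TTTCC) in Serpina3n (1.41%), each on either strand. None of the 6 widest lower genes held any of the 4 motifs. A match is a description of letters and not evidence of binding.

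Genes lower in many classes were fewer and stood at low levels. Tent5d, a poly(A) polymerase family gene, was past 2-fold lower in 4 of 4 classes but at no more than 23.3 CPM, and its interval lay below 0 in only 2 of them. Ptgs2, the inducible cyclooxygenase, was past 2-fold lower in 3 of 5: it had 25.1 CPM in the control and 6.49 CPM after laser in endothelial-like cells, -1.95 (-2.43 to -1.49), and 19.5 CPM in the control and 3.94 CPM after laser in mural-like cells, -2.25 (-3.45 to -1.31). In melanocyte-like cells 98.7% of the control UMIs of Ptgs2 came from 1 cell. Tmem25, Iqch, Fgf14 and Smyd1 were each past 2-fold lower in 3 classes at no more than 32.9 CPM. The interval lay below 0 in 1 class for Tmem25, in 2 for Smyd1 and in 3 each for Iqch and Fgf14.

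Medians of the immediate early gene list had opposite signs in different classes. Over the 9 classes with at least 5 members read, 23 of 125 class-by-gene values were past 2-fold lower and 3 higher. In endothelial-like cells 5 of 16 members were lower and 0 higher, with a median log2 ratio of -0.83 beside -0.03 over all genes read: Egr1 had 2589 CPM in the control and 1202 CPM after laser, and Fosb 861 CPM in the control and 392 CPM after laser. In mural-like cells 5 of 16 were lower (median -0.86), in melanocyte-like cells 5 of 14 (-0.85) and in Schwann-list cells 7 of 16 (-0.99). Müller glia-like cells went the other way with 2 of 11 higher, 0 lower and a median of 0.74; Klf4 had 33.9 CPM in the control and 84.3 CPM after laser and Zfp36 108 CPM in the control and 271 CPM after laser. Cone-like cells had a median of 0.44 and Egr1 at 131 CPM in the control and 302 CPM after laser. Epithelial-like cells stood at -0.04 with 0 of 15 past 2-fold. Irf1, a factor of the interferon gamma response, was past 2-fold lower in 2 of the 8 classes that read it: it had 431 CPM in the control and 183 CPM after laser in mural-like cells, -1.23 (-1.39 to -1.08), and 119 CPM in the control and 39.2 CPM after laser in melanocyte-like cells, -1.59 (-2.15 to -1.06).

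Genes private to a class were more numerous than shared ones. By a strict rule, past 2-fold in 1 class and under 1.5-fold in every other class of at least 4 that read the gene, 253 genes (6.02% of 4202) were private. Which genes these were depended on the setting and on the thinning: with all UMIs 198 were private, 61 of them among the 253, and 44 of the 253 were private with 4 markers per class. Of the 253, 74 were still called with all UMIs. With TMM factors, which used the same thinned sums, 204 stayed private. The counts per class that follow therefore include many calls that all UMIs did not keep. Schwann-list cells held 71 of the 253, macrophage/monocyte-like cells 40, Müller glia-like cells 35, melanocyte-like cells 24, rod-like cells 22, bipolar-like cells 16, endothelial-like and mural-like cells 12 each, fibroblast-like cells 8, epithelial-like cells 7 and RPE-like and cone-like cells 3 each. As a share of the class's own calls this was 29.7% in Schwann-list cells, 23.1% in macrophages, 21.6% in Müller glia and 11.4% in endothelial-like cells, counted over genes read in at least 4 classes.

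For each class the rule on named genes gave, from all UMIs, the 3 private genes that stood farthest from the next class. In rods Antxr2, a receptor for collagen VI and anthrax toxin, had 38.3 CPM in the control and 211 CPM after laser, 2.46 (2.29 to 2.62), while its log2 ratio was between -0.56 and 0.43 in the 8 other classes that measured it. Agtpbp1, the enzyme that trims polyglutamate tails of tubulin and whose loss kills photoreceptors and Purkinje cells, had 235 CPM in the control and 710.3 CPM after laser in rods, 1.60 (1.52 to 1.67). In Müller glia-like cells Gja1 (connexin 43) had 17.0 CPM in the control and 129.5 CPM after laser, 2.92 (2.49 to 3.40), with no more than 0.47 in 5 other classes, from 8 control and 21 CNV cells. Iqgap2, a scaffold of the actin skeleton, had 21.0 CPM in the control and 155 CPM after laser, 2.87 (2.49 to 3.30). The fibroblast gene Csrp2, a LIM protein of contractile cells, had 175 CPM in the control and 435 CPM after laser, 1.32 (1.26 to 1.38), in 813 and 1887 cells, and the cell cycle inhibitor Cdkn2b had 0.484 CPM in the control and 4.14 CPM after laser.

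Among the named macrophage-private genes, St3gal6, a sialyltransferase, had 251 CPM in the control and 46.2 CPM after laser, -2.44 (-2.62 to -2.26), and Dusp16, a phosphatase that restrains JNK and p38, 289.5 CPM in the control and 75.3 CPM after laser, -1.94 (-2.10 to -1.78). Rai14, an actin-binding protein, was the private gene higher there (6.78 CPM in the control and 40.0 CPM after laser). In endothelial-like cells Aspm, a spindle-pole protein, had 0.527 CPM in the control and 7.09 CPM after laser from 3 and 20 cells, the cyclin Ccna2 2.46 CPM in the control and 9.86 CPM after laser from 6 and 29 cells, and Dtl 0.176 CPM in the control and 2.89 CPM after laser from 1 and 19 cells. Only 3 other classes measured each of these genes. Mural-like cells had Ccdc85a (10.7 and 48.1 CPM) and Ptk7, a Wnt co-receptor (4.96 and 13.4 CPM). Bipolar-like cells had Phactr1, a regulator of actin, at 56.6 CPM in the control and 201 CPM after laser, 1.81 (1.30 to 2.39). For the 3 epithelial-like genes (Tgtp2, Enkur, Mansc1) the interval of the gap to the next class spanned 0, as it did for Rhbdl1 in cone-like and Zswim9 in RPE-like cells. In melanocyte-like cells 75.2% of the CNV UMIs of Col8a1 lay in 1 cell.

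**Figure D3:**
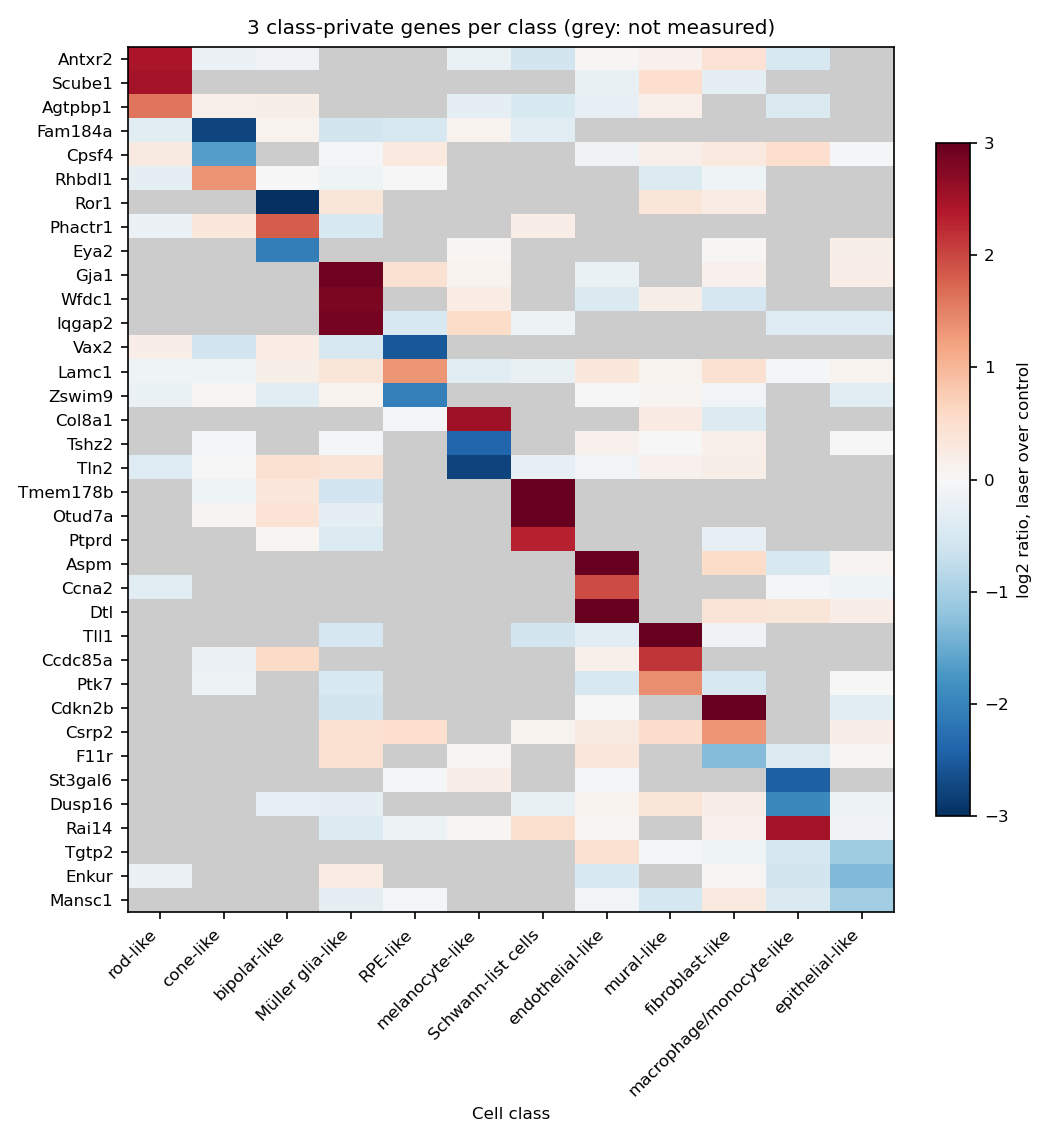
Log2 ratio of laser to control by cell class for the 3 class-private genes of each class, in the order of the classes (colour scale from -3 to 3, grey where not measured). The rule makes the coloured diagonal; the cells beside it show how close to 0 the other classes were and how many could not measure the gene.

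In Müller glia-like cells genes of reactive glia and of the acute phase were higher after laser. Gfap, the intermediate filament that marks reactive glia, had 2.38 CPM in the control and 345 CPM after laser, a log2 ratio of 7.08 (6.13 to 8.50), from 4 of 397 control cells and 38 of 205 CNV cells, with 29.4% of the CNV UMIs in 1 cell. Timp1, an inhibitor of matrix proteases, had 1.36 CPM in the control and 82.4 CPM after laser, the iron-binding Lcn2 13.2 CPM in the control and 333 CPM after laser, and complement C4b 13.9 CPM in the control and 171 CPM after laser. Of the reactive glia list, 8 of 12 members read were past 2-fold higher and 0 lower, with a median log2 ratio of 1.51 beside -0.10 over all genes read. Of the gp130 and STAT3 list, 6 of 9 members read were past 2-fold higher and 0 lower, with a median log2 ratio of 1.28 beside -0.10 over all genes read: Socs3, the feedback inhibitor of this pathway, had 47.2 CPM in the control and 227 CPM after laser, 2.26 (1.99 to 2.55), and Stat3 itself 75.3 CPM in the control and 186 CPM after laser, 1.30 (1.06 to 1.55). Of the acute phase list, 5 of 6 members read were past 2-fold higher and 0 lower, with a median log2 ratio of 3.03 beside -0.10 over all genes read. In the other 7 classes with a value for the gp130 and STAT3 list, medians ran from -0.69 to 0.04, and the lowest, in melanocyte-like cells, turned to 0.55 with cells thinned to 1000 UMIs. The other 2 lists were not higher in Müller glia-like cells alone. In fibroblast-like cells 3 of 6 acute phase and 4 of 8 reactive glia members were past 2-fold higher and 0 lower. Their medians there were 0.90 and 0.92, beside 0.00 over all genes read. Reactive glia medians were 0.23 in melanocyte-like, 0.18 in mural-like and -0.07 in Schwann-list cells.

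Müller glia-like cells also had the highest median of the type I interferon list: 7 of 10 members read were past 2-fold higher and 0 lower, with a median log2 ratio of 1.66 beside -0.10 over all genes read. Cntf, a survival factor for photoreceptors, had 21.7 CPM in the control and 110.0 CPM after laser, 2.33 (1.94 to 2.76). Lower were Prss56, a serine protease tied to eye growth, with 98.4 CPM in the control and 22.9 CPM after laser, -2.09 (-2.58 to -1.66), and Adamts19, a metalloprotease, with 61.1 CPM in the control and 14.3 CPM after laser. Among genes picked after their values were seen, Hes5, a Notch target of glia, had 265 CPM in the control and 109.5 CPM after laser and Vegfa, the vessel growth factor, 295 CPM in the control and 145 CPM after laser, -1.02 (-1.21 to -0.83). The share of mitochondrial UMIs in this class was 1.23% in the control and 2.92% after laser; its part in these values was not tested. Astrocytes share several markers of the list, so the class was checked: Pax2, an astrocyte factor, was found in 0 and 4 cells, and all 38 Gfap-bearing CNV cells held at least 3 UMIs of the Müller genes Rlbp1 and Dkk3. In cells with at least 3 such UMIs (375 and 197) the log2 ratio of Gfap was 7.08 and the class had 239 genes past 2-fold, as against 242. Rlbp1 and Dkk3 are on the list that named the class, and 375 of 397 and 197 of 205 cells passed. The check therefore left out few cells and could not decide whether astrocytes were among the Gfap-bearing cells.

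In macrophage/monocyte-like cells genes of lipid handling were higher after laser. Spp1 (osteopontin) had 16.0 CPM in the control and 11727 CPM after laser, 9.49 (8.96 to 10.13), with UMIs in 17 of 175 and 899 of 1052 cells, the largest log2 ratio among named genes of the class. Arg1 (arginase) had 1.23 CPM in the control and 94.4 CPM after laser, in 101 CNV cells, and the lysosomal glycoprotein Gpnmb 67.1 CPM in the control and 1300.3 CPM after laser, where 92.7% of the control UMIs lay in 1 cell. Of the lipid-handling macrophage list, 9 of 12 members read were past 2-fold higher and 0 lower, with a median log2 ratio of 1.58 beside -0.12 over all genes read: Fabp5, a fatty acid carrier, had 171 CPM in the control and 2445 CPM after laser, the lysosomal protease Ctsd 752 CPM in the control and 3717 CPM after laser, and the lipid receptor Trem2 209 CPM in the control and 616 CPM after laser. Apoe had 15089 CPM in the control and 24932 CPM after laser, under 2-fold. The glycolysis and hypoxia list had its highest median here (0.74, 2 of 8 past 2-fold higher). The lipid-handling list was also higher in endothelial-like cells, with 3 of 5 members past 2-fold and a median of 1.25 beside -0.03 over all genes read. Its median was 0.47 in melanocyte-like and 0.30 in RPE-like cells.

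Among the macrophage genes lower after laser, Lilra5, an activating leukocyte receptor, had 94.9 CPM in the control and 14.1 CPM after laser, -2.75 (-3.06 to -2.43), and Ch25h, which makes 25-hydroxycholesterol, 37.6 CPM in the control and 4.27 CPM after laser, -3.14 (-3.67 to -2.60). The chemokines Ccl3 and Ccl4, named after their values were seen, had 792 and 257 CPM and 1871 and 562 CPM. The class can hold resident and incoming cells: Mrc1, a marker of tissue macrophages, had 2024 and 1166 CPM in control and CNV, Cd163 533 and 320.2, Lyve1 409 and 139, and the monocyte receptor Ccr2 222 and 379. Ly6c2, another monocyte gene, went the other way from Ccr2 with 133 and 93.6 CPM. F13a1 had 1802 and 1400 CPM and Pf4 1333 and 962 CPM. With 175 and 1052 cells summed, a change within a cell and a change of the mix cannot be told apart.

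In fibroblast-like cells matrix genes were higher and others lower. Of the matrix list, 5 of 18 members read were past 2-fold higher and 0 lower, with a median log2 ratio of 0.75 beside 0.00 over all genes read: Postn (periostin) had 409 CPM in the control and 1509 CPM after laser, 1.88 (1.85 to 1.92), fibronectin Fn1 609 CPM in the control and 1783 CPM after laser, tenascin Tnc 44.6 CPM in the control and 142 CPM after laser and Col3a1 4139 CPM in the control and 9513 CPM after laser, whereas Col1a2 had 8458 CPM in the control and 10728 CPM after laser. Lrrc15, a surface protein of activated fibroblasts, had 1.57 CPM in the control and 34.7 CPM after laser, 4.44 (3.91 to 5.08), in 15 and 187 cells. Complement C3 had 148 CPM in the control and 520.4 CPM after laser and C4b 42.4 CPM in the control and 156 CPM after laser. Cthrc1, a secreted protein of repairing fibroblasts that was picked after its values were seen, had 72.9 CPM in the control and 438 CPM after laser, 2.59 (2.50 to 2.67). Car3 (carbonic anhydrase) led the decreases with 14.3 CPM in the control and 2.43 CPM after laser, -2.55 (-2.93 to -2.20), and Myoc (myocilin), also picked afterwards, had 1405 CPM in the control and 490.4 CPM after laser. Subtypes of fibroblasts were not separated among these 1410 and 2723 cells. A changed mix of subtypes therefore cannot be told apart from a change within cells.

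In endothelial-like cells type I interferon genes were higher after laser, as were some single genes of cell division, whose list had too few members read there for a count. Of the type I interferon list, 11 of 15 members read were past 2-fold higher and 0 lower, with a median log2 ratio of 1.28 beside -0.03 over all genes read. Zbp1, a sensor of viral nucleic acid, led with 5.10 CPM in the control and 53.7 CPM after laser, 3.37 (2.86 to 3.99), in 25 and 151 cells. Birc5 (survivin), needed for chromosome segregation, had 4.40 CPM in the control and 40.3 CPM after laser, in 4 of 545 control and 42 of 765 CNV cells, Pclaf 2.99 CPM in the control and 28.1 CPM after laser and Mki67 6.51 CPM in the control and 34.4 CPM after laser. Birc5 and Pclaf were not particular to this class: each was past 2-fold higher in 3 of the 5 classes that measured it. Cyp26b1, which degrades retinoic acid, was lower with 236 CPM in the control and 33.7 CPM after laser, -2.81 (-3.00 to -2.63). Of the angiogenesis list, 1 of 8 members read were past 2-fold higher and 1 lower, with a median log2 ratio of -0.57 beside -0.03 over all genes read. In it Col18a1, the precursor of endostatin, had 84.4 CPM in the control and 347 CPM after laser, and the receptors Kdr and Flt1 had 1723 and 1055 CPM and 3395 and 2304 CPM. Genes picked after their values were seen include Aplnr, the apelin receptor (28.7 and 145 CPM), and Prnd, a prion-like protein (13.2 and 91.9 CPM). Endothelial cells of choroid and retina were not separated, so a changed mix cannot be told apart from a change within cells. Mural-like cells had Col15a1, a basement membrane collagen, at 9.16 CPM in the control and 58.3 CPM after laser, 2.65 (2.04 to 3.36), and Col6a3 at 23.7 CPM in the control and 95.7 CPM after laser.

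In photoreceptors phototransduction genes stood near the control level, and in rods Edn2 and Fgf2 were higher. Of the photoreceptor list 0 of 16 members in rod-like and 0 of 13 in cone-like cells were past 2-fold, with medians of -0.01 and -0.04. Edn2, an endothelin that stressed photoreceptors send to Müller cells, had 3.42 CPM in the control and 88.0 CPM after laser in rods, 4.66 (4.19 to 5.22), and Fgf2, a survival factor, 26.2 CPM in the control and 129 CPM after laser, 2.30 (2.10 to 2.51). Fgf2 in cone-like cells had 4.62 CPM in the control and 19.5 CPM after laser, 2.03 (0.93 to 3.36). The rule's 3 leading rod genes Myog, Mymx and Actc1 are muscle genes with 92.9%, 95.9% and 92.6% of their CNV UMIs in 1 cell each, and the class's share of macrophage-list UMIs was 0.0306% and 0.119%. In cone-like cells Mef2c, a transcription factor of photoreceptors and other cells, had 227 CPM in the control and 102 CPM after laser, -1.16 (-1.45 to -0.87). Bipolar-like cells (74 and 156) had Adarb2, an RNA editing family gene, at 0 and 220 UMIs, at least 36.2-fold higher, in 0 and 12 cells; subtypes of bipolar cells were not separated, so a changed mix of subtypes cannot be told apart from a change within cells.

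RPE-like cells changed in few genes, but some by much. Serpine3, a serpin family member, had 33.2 CPM in the control and 896 CPM after laser, 4.75 (4.51 to 5.01), in 33 and 90 cells, and Procr, the endothelial protein C receptor, 0.697 CPM in the control and 12.5 CPM after laser in 3 and 12 cells. In melanocyte-like cells 5 of 9 members of the actin, annexin and S100 list were higher, with a median of 1.15, and with cells thinned to 1000 UMIs 1 of 8, with a median of 0.49. Lgals3 (galectin 3) had 71.8 CPM in the control and 1220.5 CPM after laser, 4.07 (3.69 to 4.52), beside 2149 CPM in CNV macrophages, and vimentin (Vim) 645 CPM in the control and 1399.6 CPM after laser. Ccnd1 (cyclin D1) had 2.76 CPM in the control and 102 CPM after laser in 2 and 12 melanocyte-like cells. Epithelial-like cells, deeply covered at 10531495 and 9380099 UMIs, showed few and small changes: Krt16, a stress keratin, had 218 CPM in the control and 73.5 CPM after laser, with 51.6% of the control UMIs in 1 cell, and Cxcl10 23.7 CPM in the control and 6.61 CPM after laser. The leading Cnfn had 98.2% of its UMIs in 1 cell.

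The class with most calls, the Schwann-list cells (61 and 113), was mixed, and its mix differed between libraries. Cells with at least 3 UMIs of the oligodendrocyte genes Mog, Mobp and Opalin were 1 of 61 and 12 of 113. Mobp had 119 and 666 CPM. The leading genes Klk6 and Enpp6 had 0 control UMIs and 200 and 155 after laser, at least 20.8-fold and 16.1-fold higher, in 8 and 11 cells. Without the cells holding oligodendrocyte genes, an alternative chosen after seeing the data, 327 genes were past 2-fold (8.69% of those read). Runx2, a Runt factor, had 21.2 CPM in the control and 439 CPM after laser, 4.29 (3.38 to 5.59), in 6 and 40 cells. Gap43, a growth-cone protein also made by repair Schwann cells and picked after its values were seen, had 18.5 CPM in the control and 195 CPM after laser. Of the leading decreases, Sfrp2 and Sfrp4 had 97.6% and 100% of their control UMIs in 1 cell.

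Type I interferon genes had a positive median in 7 of the 8 classes with at least 5 members read, and 36 of 85 class-by-gene values (42.4%) were past 2-fold higher and 1 lower. Medians ran from 1.66 in Müller glia-like and 1.28 in endothelial-like cells to -0.26 in epithelial-like cells, where the sign turned with cells thinned to 1000 UMIs (0.36). Of the interferon gamma and antigen presentation list 6 of 14 members were higher in endothelial-like cells, where the median was 0.63, and medians in the other 6 classes ran from -0.35 to 0.37. Cholesterol synthesis genes were higher in Schwann-list cells (median 0.90, 3 of 9) and had a median of -0.57 in Müller glia-like cells, where 2 of 5 were lower and 0 with TMM factors. Respiratory chain genes, read in 12 classes, had 1 of 166 values past 2-fold and medians between -0.07 and 0.44. These lists and the classes they are described in were chosen with earlier results known, so their direction is a description.

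**Figure D4:**
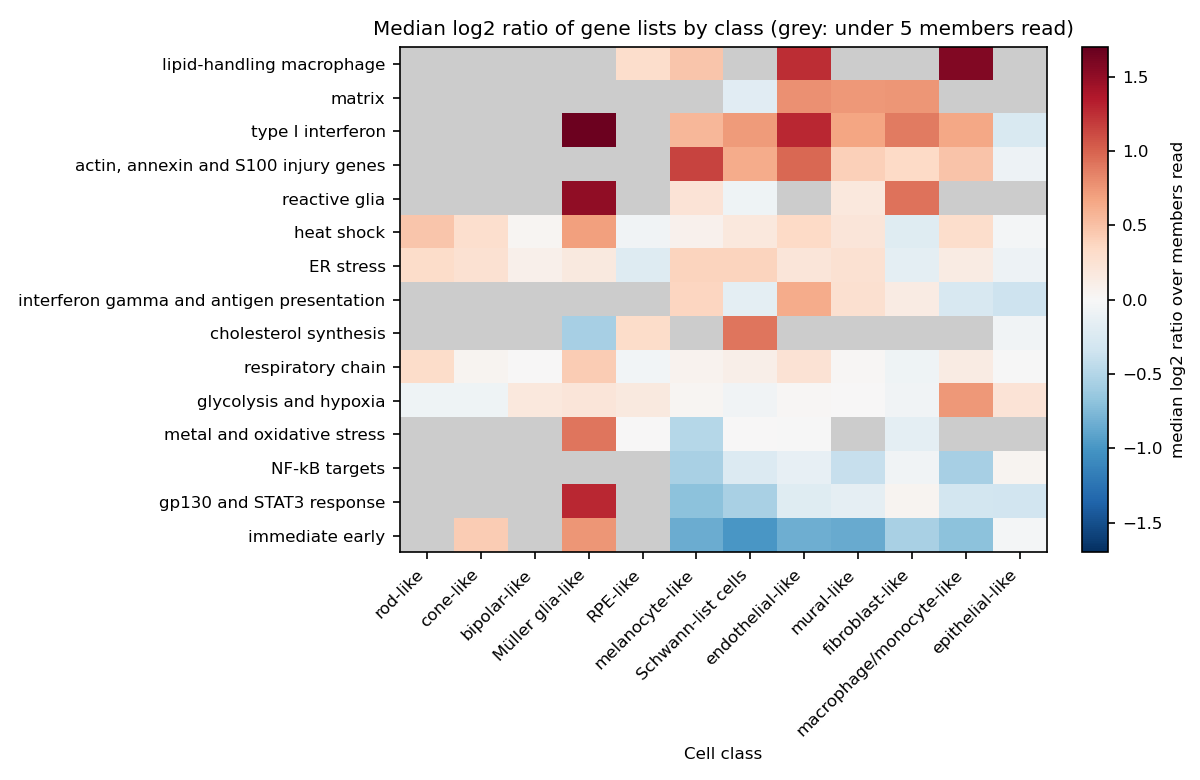
Median log2 ratio of laser to control over the members read, for gene lists with a value in at least 4 classes, by cell class (colour scale from -1.7 to 1.7, grey where fewer than 5 members were read). The type I interferon row is red except in epithelial-like cells (-0.26, a sign that turns with cells thinned to 1000 UMIs), and the immediate early row is blue except in cone-like (0.44) and Müller glia-like cells (0.74) and near white in epithelial-like cells.

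Some genes were past 2-fold in opposite directions in different classes, with both intervals away from 0 and no cell above 20% of the UMIs. There were 13, chosen after their values were seen. The interferon-inducible Ifi27l2a was higher in endothelial-like cells (72.1 and 233 CPM) and mural-like cells (124 and 435 CPM) and lower in epithelial-like cells (634 and 233 CPM, -1.44 (-1.51 to -1.37)). Klf4, Zfp36, Mt2 and the syndecan Sdc4 were higher in Müller glia-like cells and lower in Schwann-list cells, with log2 extremes of 2.61 and -1.16 for Mt2, a metallothionein. Slc6a6, the taurine transporter, had a log2 ratio of 1.80 in Müller glia-like and -1.09 in fibroblast-like cells.

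The 2 aged libraries (WT mice over 18 months, unlesioned or 3 days after the same burns, 6676 and 7731 cells) share no sample with the young ones and allowed 9 classes to be set side by side. At equal UMI totals 205 of 945 young calls (21.7%) were past 2-fold in the same direction in aged mice and 13 (1.38%) in the opposite one, where 4.52% of all genes read were called in aged mice. With all UMIs 164 of 403 (40.7%) were the same and 4 opposite, beside 2.44% of all genes. Of higher calls 133 of 266 were the same in aged mice, and of lower calls 31 of 137 (22.6%). In endothelial-like cells 33 of 36 higher genes were also higher in aged mice beside 2.47% of all genes, in Müller glia-like cells 45 of 68 beside 3.40%, in rod-like cells 20 of 29 beside 1.23%, in macrophage/monocyte-like cells 13 of 39 beside 2.83% and in bipolar-like cells 2 of 59 beside 0.193%. The differences between classes were not tested. At equal UMI totals the share of all genes read in both ages that was higher in aged mice was 5.54% in Müller glia-like, 3.81% in macrophage/monocyte-like, 3.7% in endothelial-like, 3.7% in fibroblast-like, 3.16% in mural-like, 2.46% in rod-like, 1.31% in RPE-like, 1.07% in bipolar-like and 0.795% in cone-like cells. The share lower was 2.21%, 3.02%, 1.97%, 2.05%, 1.37%, 0.967%, 1.45%, 0.909% and 0.764%, in the same order.

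The shared interferon genes were past 2-fold higher in aged mice too: Irf7 in 7 of 7 classes, Isg15 in 5 of 5, Oasl2 and Ifit1 in 6 of 6, Bst2 in 6 of 7 and Ifit3 in 5 of 6. Ncapg2 was so in 1 of 5. Edn2 and Fgf2 in rods had aged log2 ratios of 1.80 and 1.86, and Gfap in Müller glia-like cells 2.91, from a higher aged control level (29.7 CPM beside 2.38 in young mice). Spp1 in macrophages had 4.91, again from a higher control (230.3 CPM). Some young changes were small in aged mice: Serpine3 in RPE-like cells had 41.4 and 60.3 CPM, Cyp26b1 in endothelial-like cells 393 and 412, Gpnmb in macrophages 1040.4 and 1388. In fibroblast-like cells 14 of 24 higher genes were also higher in aged mice, beside 2.94% of all genes, with all UMIs. There Postn had 155 and 387 CPM in aged control and CNV. Cthrc1 (133 and 85.3 CPM) and Tnc (157 and 124 CPM) were lower after laser in aged mice. In mural-like cells the immediate early gene Fosb had a log2 ratio of -1.13 in young and 0.65 in aged mice. With 1 library per age and treatment, an effect of age and of the single library cannot be told apart.

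**Figure D5:**
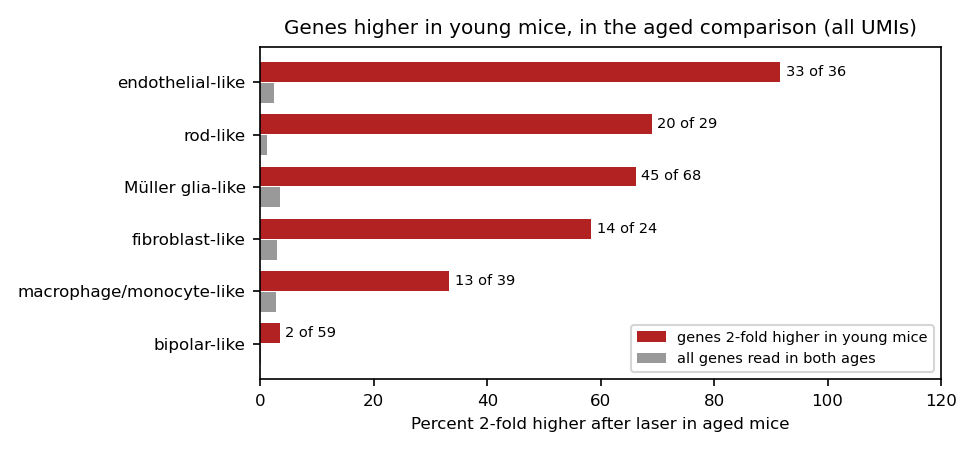
Percent of genes 2-fold higher after laser in aged mice, for genes 2-fold higher in young mice (red, with counts) and for all genes read in both ages (grey), from all UMIs, in classes with at least 20 such young genes. Endothelial-like cells have the longest red bar (33 of 36), bipolar-like cells the shortest (2 of 59).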

How the data were processed

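Single-cell RNA libraries of young mice (1 per group) were compared, with the aged pair beside them. The deposited matrix holds raw UMI counts per gene and cell, as the authors deposited them; the submitters' processing notes name Cell Ranger (no version given), Seurat 4.1.1 and mm10, with no role or order. Column prefixes gave the library, y read as young and e as aged, and 0 columns were left unmapped. A cell joined a class if it held at least 3 markers of its list, at least 0.1 of the share of UMIs that the list takes in the 100 cells richest in it, at least 0.05% of its UMIs, and 3 times the relative share of any competing list. Amacrine, ganglion and skeletal muscle lists were too weak to name cells. These thresholds were set after UMI distributions were seen and before ratios were computed. Members, gene lists and comparisons were chosen with earlier results of these data known. Named genes follow a rule: from all UMIs, the 10 genes higher and 6 lower in the most classes, 3 private genes per class and 3 leading genes per side and class by the interval bound nearest 0, members of the lists, and genes marked in the text as picked afterwards. Ratios carry exact conditional binomial 95% intervals, shares of cells exact Clopper-Pearson intervals. The count functions were tested on simulated data. Free RNA and doublets were not modelled. TMM factors came from edgeR 4.0.16, figures from matplotlib 3.10.9, and all else from pandas 2.3.3, numpy 2.4.6 and scipy 1.17.1 under Python 3.11.15.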

Additional observations from a re-analysis of the deposited data

Results flagged for a closer look

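In 4 cases, from all UMIs, a gene was past 2-fold in one direction in young mice and past 2-fold in the other in aged mice, with both intervals away from 0; the difference itself was not tested, since each side is 1 library. In Müller glia-like cells Sned1, a matrix protein gene, had a log2 ratio of 1.12 in young and -1.12 in aged mice, with 167 and 362 CPM in young control and CNV. The other 3 were macrophage genes. Atp6v0d2, a proton pump subunit, had 2.05 and -1.35, Lyve1, a hyaluronan receptor of resident macrophages, -1.56 and 1.05, and Fhit -1.62 and 1.08. Young CNV and aged control macrophages held 90.6 and 233 CPM of Atp6v0d2.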

How the results depend on the processing

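Total counts of genes past 2-fold per class moved by under 1.5 times with edgeR's TMM factors and with 4 markers per class. They also did so without the 5% of cells with most UMIs, except that 2 genes instead of 6 were then shared and lower. The same held without genes with over 20% of their UMIs in 1 cell, a setting added after seeing the data. Median-of-ratios factors shifted log2 ratios by 0 in every class, so that setting repeated the main counts and could not test them. The split by direction and the genes themselves were less stable: TMM factors gave 126 higher and 112 lower in macrophage/monocyte-like cells instead of 83 and 176. Of the 18 shared higher, 6 shared lower and 253 private genes, 17, 3 and 204 were so counted with TMM factors, 11, 1 and 44 with 4 markers per class, 7, 0 and 45 without the deepest cells and 13, 1 and 61 with all UMIs. Of gene list medians, 3 of 130 changed sign with TMM factors, none of them beyond 0.05, and 33 of 116 with cells thinned to 1000 UMIs. A CPM floor of 100 gave rod-like 40, cone-like 4, bipolar-like 38, Müller glia-like 95, RPE-like 12, melanocyte-like 45, Schwann-list cells 191, endothelial-like 59, mural-like 20, fibroblast-like 46, macrophage/monocyte-like 122 and epithelial-like 7, with 11 shared higher genes, 2 shared lower genes and 91 private genes. A floor of 20 gave rod-like 472, cone-like 338, bipolar-like 469, Müller glia-like 701, RPE-like 306, melanocyte-like 554, Schwann-list cells 969, endothelial-like 521, mural-like 429, fibroblast-like 507, macrophage/monocyte-like 681 and epithelial-like 329, with 61 shared higher genes, 32 shared lower genes and 465 private genes. All UMIs without thinning gave rod-like 43, cone-like 5, bipolar-like 63, Müller glia-like 127, RPE-like 7, melanocyte-like 80, endothelial-like 70, mural-like 22, fibroblast-like 51, macrophage/monocyte-like 128 and epithelial-like 8, with 3 shared lower genes, and 40.7% of young calls in the same direction in aged mice. Without the free RNA guard the values were cone-like 64 and RPE-like 71, with 28 shared higher genes and 16 shared lower genes. Cells thinned to 1000 UMIs leave a common total of 51000 UMIs per class and gave rod-like 876, cone-like 781, bipolar-like 756, Müller glia-like 908, RPE-like 462, melanocyte-like 706, Schwann-list cells 949, endothelial-like 774, mural-like 805, fibroblast-like 736, macrophage/monocyte-like 726 and epithelial-like 615, with 109 shared higher genes, 107 shared lower genes and 152 private genes and share ratios of rod-like 0.558, RPE-like 0.596, Schwann-list cells 1.01 and endothelial-like 1.35. Drawing 61 cells per class, added after seeing the data, gave cone-like 109, bipolar-like 165, Müller glia-like 403, RPE-like 91, melanocyte-like 218, endothelial-like 255, mural-like 164, fibroblast-like 345, macrophage/monocyte-like 513 and epithelial-like 137, with 36 shared higher genes and 19 shared lower genes. Share ratios without rod-like cells in the denominator were cone-like 0.495, bipolar-like 1.35, Müller glia-like 0.332, RPE-like 0.419, melanocyte-like 0.808, Schwann-list cells 1.19, endothelial-like 0.902, mural-like 0.607, fibroblast-like 1.24, macrophage/monocyte-like 3.86 and epithelial-like 0.687, so that melanocyte-like and endothelial-like cells changed direction. Schwann-list cells had the most calls in every setting named here, and macrophage/monocyte-like cells were among the 3 classes with most in all but the one with 1000 UMIs per cell. TMM factors shifted log2 ratios by -0.12 to 0.02. No paired analysis was possible because each group is 1 library. Depth limits classes under 50 cells, which were not compared.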
